A study of Rattus norvegicus with 18 samples.

Results

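Lysosomes hold proteins of several kinds, and 9 genes that encode such proteins are described here in oligodendrocyte progenitor cells (OPCs) of the rat: Npc2, Npc1, Psap, Ppt1, Lgmn, Lamp1, Lamp2, Laptm5 and Grn. They were taken by symbol, with the levels of a gene's transcripts added up, and make up 9 of the 17337 genes in the files. Their working name is lysosomal proteins that are not proteases, but Lgmn encodes legumain, itself a protease, so they are called the 9 lysosomal genes here, and none of them is a cathepsin. Total RNA was sequenced from 18 libraries in 6 groups of 3. Aged primary and neonate primary libraries came from OPCs enriched with magnetic beads, and each title marks their age by a letter alone. In the other 4 groups aged or neonate OPCs had been grown on soft or on stiff hydrogels coated with laminin. Medium with FGF and PDGF is named for all 18 samples, the primary ones included, and the labels give neither the age of the animals nor a stiffness value. No genetic change or drug is named for any group. The labels do not say whether the 3 libraries of a group are separate animals or cultures. P-values therefore reflect the spread among the libraries sequenced, and that spread may be technical.

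Lysosomes are acidic organelles in which proteins, lipids and sugars delivered by endocytosis, phagocytosis and autophagy are broken down. Soluble hydrolases act inside with the help of activator proteins, carriers hand cholesterol to the membrane for export, and heavily glycosylated membrane proteins line and protect the inner face. In the brain, loss of several of these proteins causes storage disease with damage to neurons or myelin. Microglia, the resident phagocytes of the brain, are rich in lysosomes, and oligodendrocytes use them in the turnover of myelin lipids and proteins.

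Levels are given as scaled TPM. TPM is the share of transcripts after correction for gene length, so that levels of different genes can be set side by side. Each library was then divided by its own scaling factor, so that libraries can be compared. Depth was low. Annotated exons held 33939 to 141883 read pairs per library (median 66816), and 22669 to 108509 without ribosomal RNA. At that depth 1 read pair was worth 3.55 to 16.6 scaled TPM for Npc2, the shortest transcript of the 9, and 0.864 to 4.05 for Npc1, the longest, so a gene listed at 0 may still have been expressed. Replicate 1 of each aged group had reads spread more widely than the rest, with 54.7% to 77.2% of olfactory receptor genes above 0 against 0.251% to 39.1% in the other 15 libraries. Of those 15, aged soft replicates 2 and 3 were highest, at 39.1% and 30.8%, against 16.1% and 1.34% in aged stiff replicates 2 and 3. Calls of the 9 genes that change without replicate 1 of each aged group, and the share of all genes called without it, are given beside the main values.

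The groups also differed in markers of cell type, and these values belong beside every age and culture result below. The summed level of 20 microglia markers was 2708 to 4555 scaled TPM in aged primary libraries, with 18 to 20 of the 20 above 0, against 139.6 to 269.8 in neonate primary libraries, with 8 to 12 above 0. Tmem119, which defines resident microglia, was listed at 0 in all 3 neonate primary libraries. The sum was 706 to 1224 in aged soft, 63.4 to 124 in neonate soft, 230 to 852 in aged stiff and 5.64 to 48.6 in neonate stiff libraries, with Tmem119, Cx3cr1, Aif1, C1qa and Irf8 at 0 in all neonate stiff libraries. The 14 OPC markers ran the other way, at 151 to 241 in aged primary, 963 to 1120 in neonate primary, 351 to 447 in aged soft, 100 to 540 in aged stiff, 1530 to 1942 in neonate soft and 1259 to 2100 in neonate stiff libraries. In these bulk samples more cells of a type and more RNA per cell cannot be told apart.

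**Figure D1:**
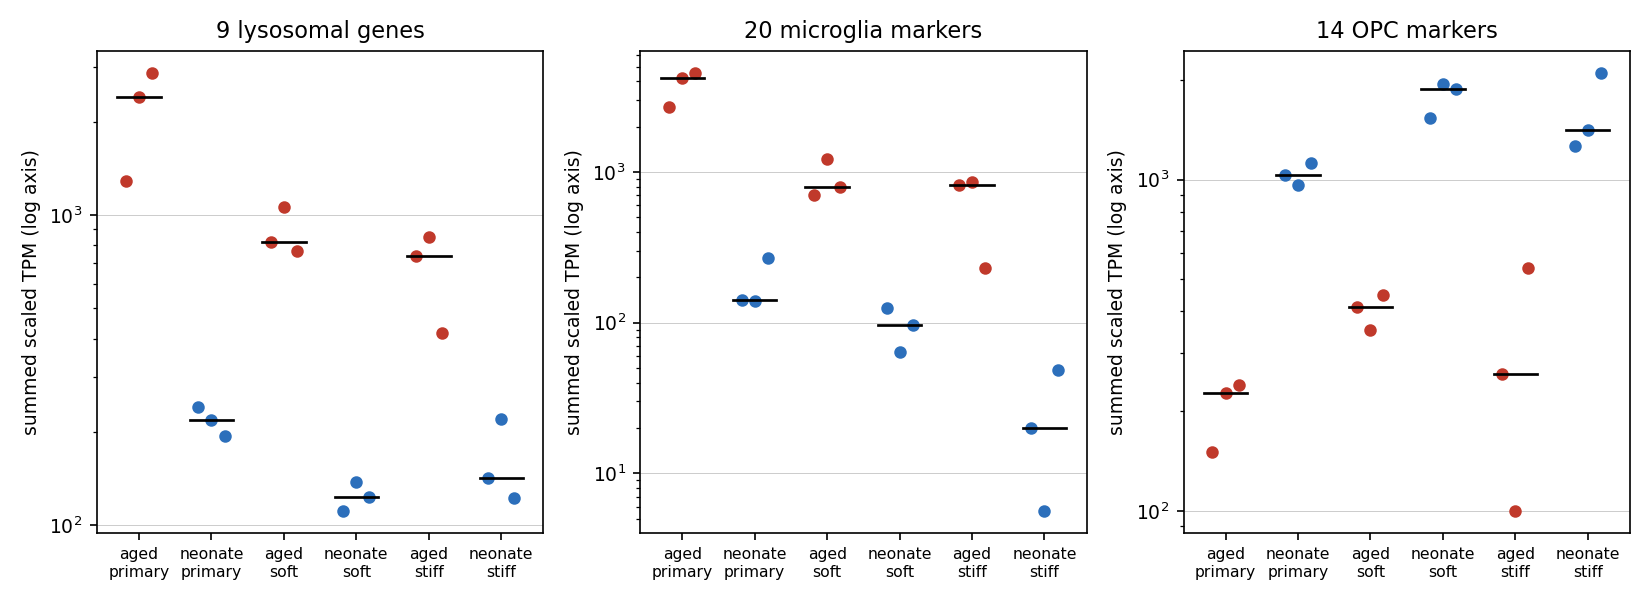
Summed scaled TPM (log axis) of the 9 lysosomal genes, 20 microglia markers and 14 OPC markers in each library, with 1 point per library, red for aged and blue for neonate, and a line at the median of 3. The lysosomal genes summed to 1291 to 2874 in aged primary and 194 to 240 in neonate primary libraries, and the order of the 6 groups was not the same for the 3 lists.

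The first question is how the lysosomal genes differ between aged and neonate primary OPCs. Of the 9 genes, 5 rose in aged primary cells (Npc2, Laptm5, Lamp2, Lgmn and Psap) and 0 fell. Among all 15144 genes tested, 2.6% were called in either direction and 1.94% were called higher. The difference was above 0 for 9 of 9 genes and for 68.2% of all genes, with a median of 3.13 for the 9 and 0.69 for all genes on the log2(scaled TPM + 1) scale. Without aged primary replicate 1 the median of all genes was 0, and 206 of the 321 genes called were higher. With replicate 1 of each aged group left out the median of all genes was also 0. The median of the 9 was then 3.61, and 3.62% of all genes were called. Genes listed at 0 in all libraries compared have a difference of exactly 0 and count in the median of all genes. For 8 of the 9 genes, Lamp1 being the exception, every aged library was above every neonate library, which held for 11.1% of all genes tested.

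Npc2 encodes the soluble lysosomal carrier that binds cholesterol and passes it to Npc1 (rn6 chromosome 6, 108467410 to 108488330, minus strand, 4 exons). Scaled TPM was 493, 976 and 1239 in the 3 aged primary libraries and 12.6, 58.9 and 25.3 in the neonate ones. Every aged library was thus far above every neonate library, and the means of 903 ± 379 (SD, n = 3) and 32.3 ± 23.9 (SD, n = 3) differed 28.0-fold. The difference was 4.92 ± 0.68 (SE) on the log2(scaled TPM + 1) scale (limma, adjusted p = 8.52e-05). Within its library Npc2 was the gene of rank 22 to 25 by level in aged primary cells. The 4 exons all had more coverage in aged than in neonate primary cells, at 36.2, 113, 13.0 and 16.4 reads per base against 1.96, 4.12, 0.241 and 0.600 from the first to the last exon.

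Npc1, the membrane protein that takes cholesterol from Npc2 and exports it (chromosome 18, 3616878 to 3662656, minus strand, 25 exons), was low throughout. It was at 15.03, 13.01 and 9.96 in aged primary libraries and at 0.526, 0 and 2.23 in neonate ones. The groups did not overlap, but the difference of 2.99 ± 1.07 (SE) did not pass the threshold (limma, adjusted p = 0.166), whereas by voom on estimated read pairs it did (adjusted p = 0.0169). Voom called 974 of all 15144 genes here, against 394 in the main fit. Its last exon overlaps the gene RGD1311805 on the other strand, and strand was not used in counting. That exon held 24.4% of the Npc1 read pairs of the aged libraries of all 3 settings and 21.997% of those of the neonate ones, with 34.7 against 8.65 pairs in the rest of the gene.

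Psap encodes prosaposin, the precursor of the saposins that activate enzymes of sphingolipid breakdown (chromosome 20, 29831314 to 29856876, plus strand). It was at 140.3, 368 and 402 in aged primary libraries and at 35.1, 27.0 and 30.1 in neonate ones. The lowest aged value was well above the highest neonate value, the means of 303 ± 142 (SD, n = 3) and 30.8 ± 4.09 (SD, n = 3) differed 9.86-fold, and the log2 difference was 3.13 ± 0.61 (SE; limma, adjusted p = 0.00382). The annotation holds 4 forms of Psap that differ by a few bases, and in each library the files assign 75.9% or more of the Psap read pairs to 1 of them. In aged primary replicates 1 and 2 the form of 2569 bases took 89.3% and 93.9% of 37.0 and 96.2 read pairs, whereas in replicate 3 the form of 2560 bases took 100% of 101. The split between such near-identical forms is uncertain, and the sum over forms is used throughout.

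Ppt1 is palmitoyl-protein thioesterase, which removes fatty acids from proteins in the lysosome (chromosome 5, 140538260 to 140558163, plus strand). Its levels of 75.1, 101 and 71.0 in aged primary libraries were all above the 17.6, 25.8 and 32.3 of neonate ones, yet the difference of 1.69 ± 0.95 (SE) did not pass the threshold (limma, adjusted p = 0.511). Lgmn, legumain, cleaves after asparagine and matures cathepsins (chromosome 6, 126282246 to 126308210, minus strand). It was at 303, 608 and 499.8 in aged primary libraries and at 54.7, 35.3 and 30.1 in neonate ones, which did not overlap. The means of 470.3 ± 155 (SD, n = 3) and 40.0 ± 13.0 (SD, n = 3) differed 11.7-fold, and the log2 difference was 3.51 ± 0.96 (SE; limma, adjusted p = 0.0466).

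Lamp1 and Lamp2 are the main glycoproteins of the lysosomal membrane, and Lamp2 also serves in autophagy. Lamp1 (chromosome 16, 81689588 to 81706561, minus strand) was at 38.1, 31.5 and 63.4 in aged primary libraries and at 40.1, 36.8 and 2.58 in neonate ones. These ranges overlapped, and the log2 difference was 1.29 with a 95% interval of -0.80 to 3.38 (limma, adjusted p = 0.686). Lamp2 (chromosome X, 124722628 to 124766044, minus strand) was at 58.0, 51.5 and 95.02 against 6.11, 0 and 14.6, with every aged value above every neonate value. Its difference was 3.80 ± 0.99 (SE; limma, adjusted p = 0.034).

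Laptm5, a lysosomal membrane protein best known from blood and immune cells (chromosome 5, 149047681 to 149069719, plus strand), was at 66.0, 93.4 and 198 in aged primary libraries and at 2.70, 5.04 and 3.57 in neonate ones. The means of 119 ± 69.6 (SD, n = 3) and 3.77 ± 1.18 (SD, n = 3) differed 31.6-fold, with a log2 difference of 4.53 ± 0.83 (SE; limma, adjusted p = 0.00221). Neonate values of that size rest on about 1 read pair. Grn encodes progranulin, a secreted glycoprotein that is taken to lysosomes and cut into granulins there (chromosome 10, 90377103 to 90383207, plus strand). It was at 103, 160.4 and 295 against 70.4, 29.2 and 53.2, without overlap, and its difference of 1.81 ± 0.58 (SE) missed the threshold (limma, adjusted p = 0.11). Without replicate 1 of each aged group Grn passed, at 2.16 (limma, adjusted p = 0.0421).

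The calls of Npc2 and Psap held in all 14 alternatives, and that of Laptm5 was lost only with a pseudocount of 0.1 (limma, adjusted p = 0.0811). Those of Lgmn and Lamp2 were lost in 11 of 14 each, Lgmn when any 1 of the 6 primary libraries was left out and Lamp2 when any but neonate replicate 3 was (limma, adjusted p = 0.0907 to 0.170 for Lgmn and 0.0726 to 0.277 for Lamp2). Without replicate 1 of each aged group neither passed (limma, adjusted p = 0.235 and 0.142). The part of the differences in microglia, OPC, mature oligodendrocyte and endothelial markers in these results was not tested.

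**Figure D2:**
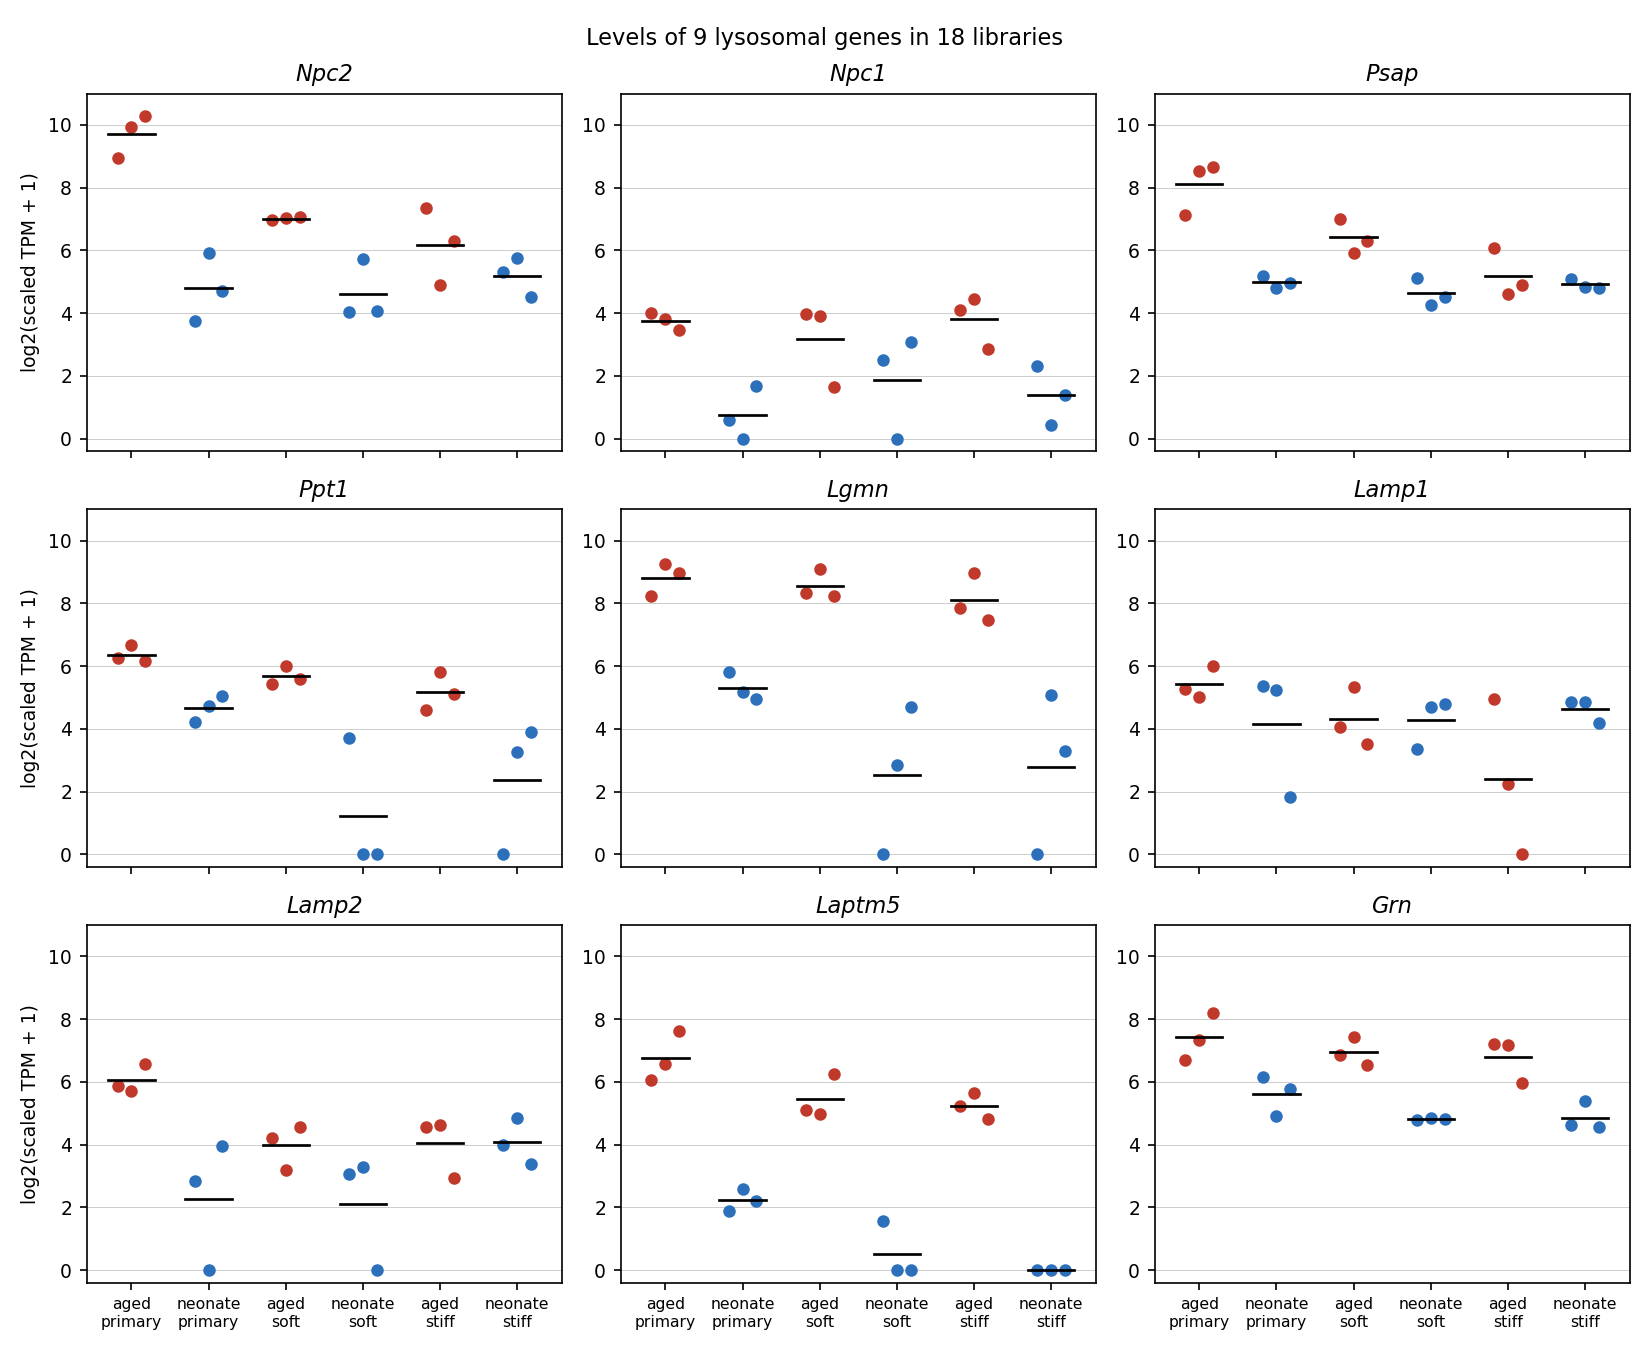
Level of each of the 9 genes as log2(scaled TPM + 1) in each of 18 libraries, red for aged and blue for neonate, with the groups on the horizontal axis and a line at the mean of 3. Npc2, Psap, Ppt1 and Lamp2 were highest in aged primary cells without overlap with any other group, whereas Lgmn, Laptm5 and Grn were high in all 3 aged groups and Lamp1 overlapped between neighbouring groups.

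Other lysosomal genes were grouped in 4 lists and measured in the same comparison. Of 26 glycosidases, sulfatases, lipases and phosphatases tested, 2 rose, with a median of 2.27, among them Lipa, the acid lipase that frees cholesterol from its esters, at 9.03, 32.8 and 31.5 against 0 in all 3 neonate libraries (4.48; limma, adjusted p = 0.0355). Of 22 activators, membrane proteins and transporters, 2 rose, with a median of 1.39: Cd68, a lysosomal membrane protein also used as a marker of macrophages and microglia, by 4.22 (limma, adjusted p = 0.0151), and Slc11a1, a metal transporter of phagocytes, by 3.56 (limma, adjusted p = 0.0334). Of 15 proton pump genes 1 rose, Atp6ap1, an accessory subunit, by 2.39 (limma, adjusted p = 0.0257), with a median of 1.03. Of 14 genes of sorting and of the TFEB family, which includes the main regulators of lysosomal genes, 0 passed and 2 had an unadjusted p under 0.05, with a median of 0.85 against 0.69 for all genes. Among all genes tested 12.7% had an unadjusted p under 0.05. The lists differ in how highly their genes are expressed, and the difference between them was not tested.

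Marker lists in this comparison were as follows. Of 20 microglia markers 15 rose, with a median of 4.85, led by Irf8 (6.88), Tmem119 (6.39) and Fcer1g (6.34). A difference from a group listed at 0, such as that of Tmem119, depends on the pseudocount. Of 14 OPC markers 4 fell: Ncan (-5.38), Olig1 (-4.49), Pdgfra (-4.46) and Sox6. Of 15 mature oligodendrocyte markers 14 had a difference above 0, with a median of 3.20, close to that of the 9 lysosomal genes, and 12 had an unadjusted p under 0.05. Tf (5.42) and Aspa (5.05) rose and Mog (-4.93) fell, and the summed level of the list was 282 to 716 in aged and 212 to 332 in neonate primary libraries. Of 10 neuron markers Stmn2 (-4.53) and Dcx (-4.24) fell. None of 11 astrocyte and 9 endothelial markers passed in limma, where 5 and 3 had an unadjusted p under 0.05. Of the astrocyte markers 7 had a difference below 0, and of the endothelial markers 8 had one above 0, with a median of 2.07. The summed level of the endothelial list was 44.1 to 208 in aged and 19.3 to 28.8 in neonate primary libraries.

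The same age difference was then measured on soft gels. Lgmn, Laptm5 and Ppt1 rose in aged cells, 3 of 9 against 1.37% of all genes called higher (1.56% in either direction), and 0 fell. The median difference was 2.13 for the 9 genes and 0.86 for all genes. The medians were 2.17 and 0.45 without replicate 1 of each aged group, and 5.78% of all genes were called. Lgmn was at 324, 548 and 301 in aged soft libraries and at 0, 6.28 and 24.9 in neonate ones, a log2 difference of 6.04 ± 0.96 (SE; limma, adjusted p = 0.000731). Laptm5 was at 33.8, 30.2 and 75.8 against 1.96, 0 and 0 (4.93 ± 0.83, SE; limma, adjusted p = 0.00125). Ppt1 was at 42.2, 63.5 and 47.6 against 12.1, 0 and 0 (4.45 ± 0.95, SE; limma, adjusted p = 0.0119). For these 3 genes the lowest aged library was above the highest neonate library. Every aged soft library was above every neonate soft library for 6 of the 9 genes and for 16.046% of all genes tested.

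The other 6 genes did not pass on soft gels. Npc2 was at 124, 129 and 132 in aged soft and at 15.3, 52.5 and 15.6 in neonate soft libraries, without overlap and 4.61-fold apart in their means, but the log2 difference of 2.41 ± 0.68 (SE) missed the threshold (limma, adjusted p = 0.0712). Psap was at 128, 59.4 and 78.4 against 34.0, 18.1 and 21.9 (1.78 ± 0.61, SE; limma, adjusted p = 0.14). Grn was at 116, 172 and 92.9 against 26.7, 28.1 and 27.2, which did not overlap either (2.13 ± 0.58, SE; limma, adjusted p = 0.0611). Npc1, at 14.6, 14.1 and 2.14 against 4.72, 0 and 7.37, overlapped between ages, as did Lamp2, at 17.4, 8.12 and 22.9 against 7.46, 8.79 and 0, and Lamp1, at 15.8, 39.6 and 10.4 against 9.23, 24.8 and 26.6. The Lamp1 difference of 0.03 had a 95% interval of -2.06 to 2.12.

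Without replicate 1 of each aged group Psap and Grn passed on soft gels, at 1.48 and 2.17 (limma, adjusted p = 0.0203 and 0.0287), and Ppt1 did not (limma, adjusted p = 0.0554). By voom Npc2 and Grn passed (adjusted p = 0.0499 and 0.037), where 991 of all 15144 genes were called, against 236 in the main fit. Ppt1 was also lost when neonate soft replicate 2 or 3 was left out, and all 3 calls were lost when only the soft gel libraries were fitted. Other lists gave 3 rises of 22 activators, membrane proteins and transporters (Cd68 by 8.30, at 234, 325 and 407 against 0 in all 3 neonate libraries, Slc11a1 by 5.43 and Cd63, a tetraspanin of late endosomes, by 3.16) and 0 of 26 hydrolases, 0 of 15 proton pump genes and 0 of 14 sorting genes in limma, of which 7, 3 and 2 had an unadjusted p under 0.05, as had 16.6% of all genes. Of the markers 6 of 20 microglia genes rose (Tyrobp by 6.99, Fcer1g by 6.10, Spi1 by 4.91, Itgam, C1qc and Irf8), 4 of 14 OPC genes fell (Cacng4 at -4.69, Ncan at -3.60, Bcan at -3.41 and Sox10), and Tf rose by 4.80. None of 9 endothelial markers passed in limma, but 9 of 9 differences were above 0, with a median of 2.04. Their summed level was 54.3 to 118 in aged and 6.33 to 19.1 in neonate soft libraries. The part of all these markers in the result was not tested.

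On stiff gels Laptm5 and Lgmn rose in aged cells, 2 of 9 against 1.13% of all genes called higher (2.18% in either direction), and the median was 1.92 for the 9 genes and 0.49 for all genes. The medians were 1.71 and 0 without replicate 1 of each aged group, and 2.71% of all genes were called. The median of all genes was also 0 without aged stiff replicate 1 alone. Laptm5 was at 36.6, 49.6 and 26.9 in aged stiff libraries and listed at 0 in all 3 neonate stiff ones (limma, adjusted p = 0.000411). Against a floor of 3 read pairs per library, worth 15.5 to 22.4 scaled TPM here, its mean was 2.10-fold higher in aged cells. The aged stiff values themselves rest on 4.65 to 4.99 read pairs per library, in 1 or 2 of 8 exons, so that ratio is not a firm lower bound. Lgmn was at 231, 499 and 176 against 0, 33.1 and 8.87, with no overlap (5.30 ± 0.96, SE; limma, adjusted p = 0.00157). Without replicate 1 of each aged group Lgmn did not pass (limma, adjusted p = 0.0775), and neither gene passed when only the stiff gel libraries were fitted (limma, adjusted p = 0.394 for Lgmn and 0.075 for Laptm5).

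The other 7 genes did not pass on stiff gels. Grn was at 145.5, 145 and 61.7 against 23.7, 41.2 and 22.7 and did not overlap (1.92 ± 0.58, SE; limma, adjusted p = 0.0898). It passed with no scaling, at 2.67 (limma, adjusted p = 0.0239), and without aged stiff replicate 3, at 2.33 (limma, adjusted p = 0.0295). Npc1, at 16.2, 21.0 and 6.32 against 3.9996, 0.357 and 1.61, and Ppt1, at 23.4, 55.1 and 33.7 against 0, 8.53 and 13.98, did not overlap between ages either (limma, adjusted p = 0.315 and 0.154). Every aged stiff library was above every neonate stiff library for 5 of the 9 genes and for 5.61% of all genes tested. Npc2, at 162, 28.8 and 78.0 against 38.4, 53.3 and 22.1, and Psap, at 67.0, 23.3 and 28.5 against 33.4, 27.7 and 26.8, overlapped. So did Lamp2, at 22.8, 23.5 and 6.73 against 14.9, 27.7 and 9.52. Lamp1 was at 30.0, 3.74 and 0 in the aged stiff libraries and 28.3, 28.3 and 17.4 in the neonate ones, the lowest difference of the 9 at -2.25 (limma, adjusted p = 0.324).

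Of the other lists on stiff gels, Cd68 (6.08) and Slc11a1 (4.44) rose among 22 activators, membrane proteins and transporters. In limma 0 of 26 hydrolases, 0 of 15 proton pump genes and 0 of 14 sorting genes passed, and 4, 2 and 2 had an unadjusted p under 0.05, as had 13.6% of all genes. Of microglia markers 5 of 20 rose (Fcer1g by 6.24, Spi1 by 5.98, Irf8 by 5.96, Itgam and Csf1r), and of OPC markers 3 of 14 fell (Bcan at -5.13, Sox10 at -4.50 and Ncan at -3.56). No endothelial marker passed in limma, but 9 of 9 differences were above 0, with a median of 1.64. The summed level of that list was 17.7 to 137 in aged and 0 to 3.31 in neonate stiff libraries. Of 11 astrocyte markers 1 fell, Gfap (-4.27), and 8 of the 11 differences were below 0. None of 15 mature oligodendrocyte markers passed in limma, where 5 had an unadjusted p under 0.05, with a median of -0.03. Their summed level was 127 to 470 in aged and 417 to 885 in neonate stiff libraries.

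**Figure D3:**
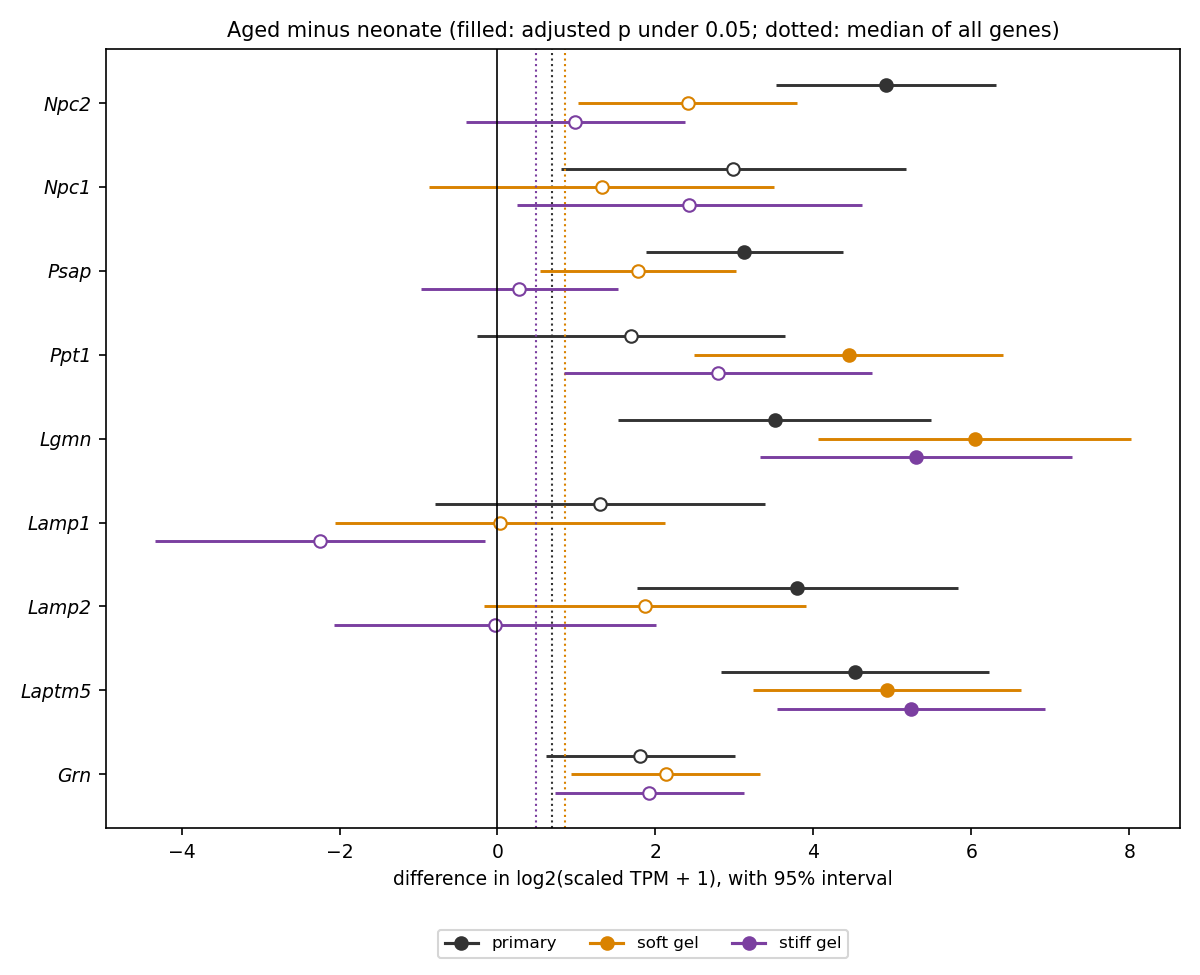
Aged minus neonate difference in log2(scaled TPM + 1) of each gene with its 95% interval, in primary cells, on soft gels and on stiff gels; filled points passed an adjusted p of 0.05, and dotted lines mark the median of all genes. Laptm5 and Lgmn passed in all 3 settings, Npc2, Psap and Lamp2 in primary cells, and Ppt1 on soft gels.

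The comparison of both gels with primary cells asks how cells grown on gels differ from primary ones. In aged cells Npc2 and Psap fell on gels, 2 of 9 against 0.773% of all genes called lower (1.11% in either direction), and 0 rose. All 9 differences were below 0, whereas 52.0% of all genes were above 0. The median was -1.41 for the 9 genes and 0.05 for all genes. Npc2 and Psap also passed without replicate 1 of each aged group, but 3.94% of all genes were called, and most of these were higher on gels (344 of 596, against 51 of 168). This comparison uses the same aged primary libraries as the age comparison above.

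Npc2 dropped from 493 to 1239 scaled TPM in aged primary cells to 124 to 132 (soft gels) and 28.8 to 162 (stiff gels), a mean 7.03-fold and 10.1-fold lower. Its log2 difference was -3.12 ± 0.59 (SE; limma, adjusted p = 0.00484). Psap went from 140.3 to 402 in primary cells to 59.4 to 128 (soft gels) and 23.3 to 67.0 (stiff gels), a mean 3.42-fold and 7.66-fold lower, with a log2 difference of -2.31 ± 0.52 (SE; limma, adjusted p = 0.0223). For both genes the lowest primary library was above the highest gel library. The share of all genes with such a gap between primary and gel libraries was not counted, for aged or for neonate cells. Neither call held without aged primary replicate 2 or without replicate 3, where the adjusted p of limma reached 0.059 for Npc2 and 0.203 for Psap, and that of Psap was also lost without aged soft replicate 2.

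The remaining 7 genes did not pass in aged cells. Lgmn, at 303 to 608 in primary cells, was at 301 to 548 with soft gels and 176 to 499 with stiff gels, with a log2 difference of -0.49 and a 95% interval of -2.21 to 1.22. Grn (-0.55, interval -1.58 to 0.49), Npc1 (-0.26, interval -2.15 to 1.64) and Ppt1 (-0.94, interval -2.63 to 0.76) had intervals that reach from a large decrease to an increase. Laptm5 (-1.41; limma, adjusted p = 0.545), Lamp1 (-2.09; limma, adjusted p = 0.393) and Lamp2 (-2.04; limma, adjusted p = 0.386) were lower in their estimates. Lamp2 did not overlap between aged primary and either gel, with 51.5 as the lowest primary and 23.5 as the highest gel value.

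Among other lysosomal genes Atp6v1e1, a subunit of the proton pump, rose from 26.9, 20.04 and 64.2 to 185, 170.3 and 143 (soft) and 185, 200.03 and 122.7 (stiff gels) (2.30; limma, adjusted p = 0.0107), 1 of 15. In limma 0 of 22 activators, membrane proteins and transporters and 0 of 14 sorting genes passed, with 3 and 4 at an unadjusted p under 0.05, as had 9.74% of all genes. Of 26 hydrolases 1 fell and 0 rose, with a median of -0.88. Of microglia markers 5 of 20 fell, led by P2ry12 (-8.11), Cx3cr1 (-6.97) and C1qc (-5.45), and P2ry12 went from 621, 1164 and 978 to 7.34, 6.10 and 0 on soft gels. Olig1 rose by 2.90, 1 of 14 OPC markers, and Mog by 3.26, 1 of 15 mature oligodendrocyte markers. Their part in the fall of Npc2 and Psap was not tested.

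In neonate cells 0 of the 9 genes passed between gels and primary cells in limma, where 0.099% of all genes were called, and 3 of the 9 had an unadjusted p under 0.05, as had 4.70% of all genes. Those were Ppt1 (-2.86; adjusted p = 0.342), Lgmn (-2.65; adjusted p = 0.452) and Laptm5 (-1.96; adjusted p = 0.686). Ppt1 was at 17.6 to 32.3 in neonate primary cells, at 12.1, 0 and 0 with soft gels and at 0, 8.53 and 13.98 with stiff gels, which did not overlap. Lgmn was at 30.1 to 54.7 in primary cells and overlapped with stiff gels only. With no scaling Lgmn and Ppt1 passed, and by voom on read equivalents Lgmn did. All genes called numbered 47 with no scaling and 168 by voom, against 15 in the main fit. Npc2 in neonate cells was at 12.6 to 58.9 in primary libraries, 15.3 to 52.5 with soft gels and 22.1 to 53.3 with stiff gels. Its difference was 0.11 with a 95% interval of -1.10 to 1.31, and Psap had -0.21 (interval -1.28 to 0.87). Of the markers P2ry12 fell (-5.12; limma, adjusted p = 0.0127).

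**Figure D4:**
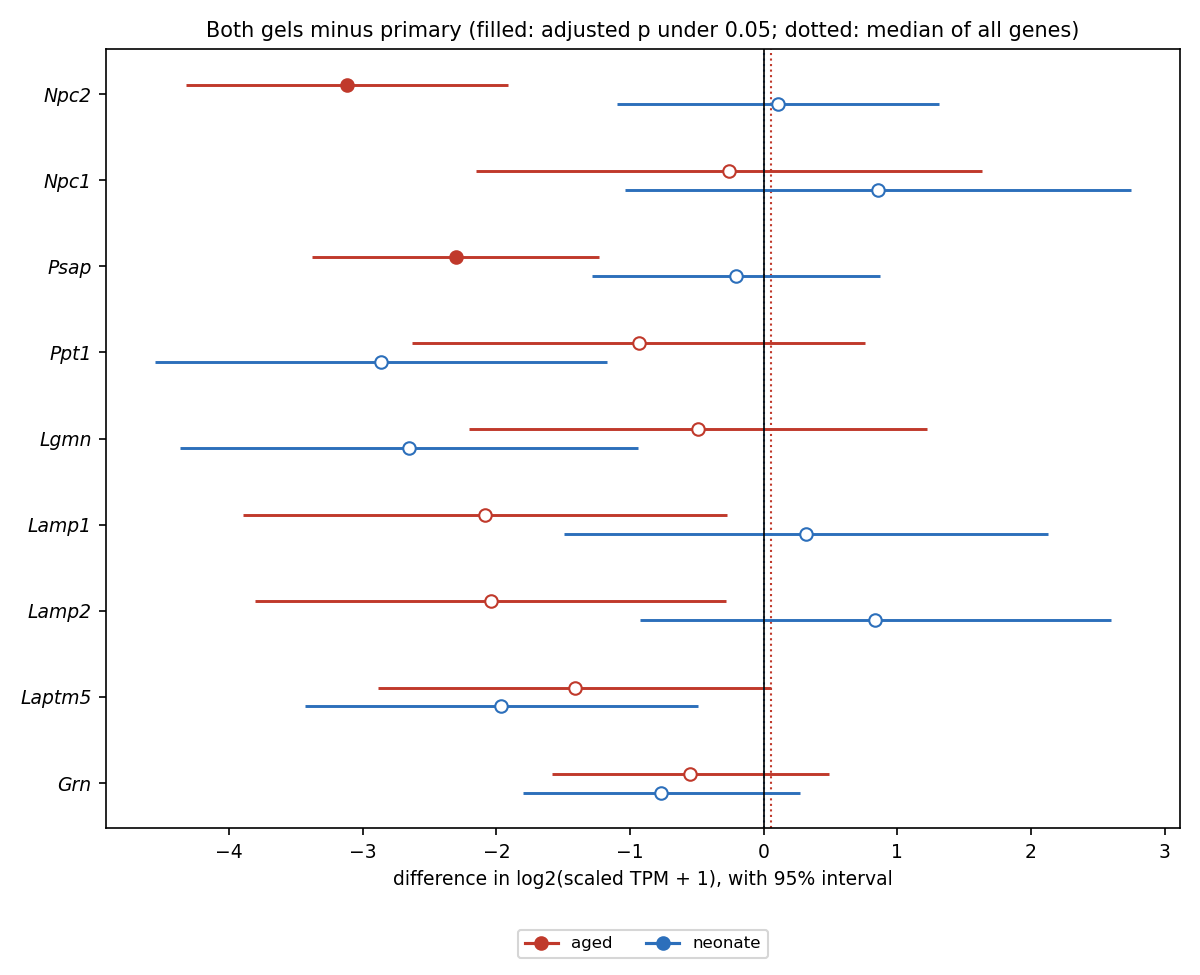
Mean of both gels minus primary cells in log2(scaled TPM + 1) for each gene with its 95% interval, red for aged and blue for neonate cells; filled points passed an adjusted p of 0.05, and dotted lines mark the median of all genes. Npc2 (-3.12) and Psap (-2.31) passed in aged cells, and 0 genes passed in neonate cells.

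Whether the change on gels differed between ages was tested as an interaction. None of the 9 genes passed in limma, where 0.112% of all genes did, and 3 had an unadjusted p under 0.05, as had 5.57% of all genes: Npc2 at -3.23 ± 0.83 (SE; adjusted p = 0.2), Psap at -2.10 ± 0.74 (SE; adjusted p = 0.593) and Lamp2 at -2.88 ± 1.21 (SE; adjusted p = 0.755). By voom the count was also 0. Without replicate 1 of each aged group Psap passed, at -2.96 (limma, adjusted p = 0.00658), and so did 1.85% of all genes. A negative value means that the difference between gels and primary cells was lower in aged than in neonate cells.

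Soft and stiff gels were set against each other within each age. In aged cells 0 of the 9 genes passed in limma and 0 by voom, 0 had an unadjusted p under 0.05, and 0.0792% of all genes were called (12 genes). Leaving out replicate 1 of each aged group, 4.59% were called (695 genes, 647 of them higher on soft gels), and again 0 of the 9. The libraries left also differed in genes above 0, at 10536 and 10849 in aged soft against 6850 and 5842 in aged stiff. The part of that in the 695 calls was not tested. The largest differences were those of Lamp1, 1.91 with a 95% interval of -0.18 to 3.996, and Psap, 1.22 with -0.02 to 2.47, beside a median of 0.59 for all genes. In neonate cells 0 of the 9 passed in limma and 0 by voom, 0 had an unadjusted p under 0.05, and 0% of all genes were called. Lamp2 was the farthest from 0, at -1.95 with an interval of -3.99 to 0.08. The intervals of Grn were the narrowest, -1.03 to 1.36 around 0.17 in aged cells and -1.24 to 1.16 around -0.04 in neonate cells. The difference between ages in this contrast also gave 0 of 9 in limma and by voom, with 0 at an unadjusted p under 0.05 and 0.0066% of all genes called. That share was 2.36% (357 genes) without replicate 1 of each aged group, and 0 of the 9 passed. The same aged soft and aged stiff libraries were left here.

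Across the 6 groups the order of the means therefore took several forms. Npc2 and Psap were highest in aged primary cells, followed by aged soft and aged stiff, and only the step from aged primary to aged soft was without overlap. Ppt1 had the same order, with a further gap between neonate primary and neonate stiff cells. Lgmn and Laptm5 had the gap below aged stiff, so that neighbouring aged groups overlapped and all aged groups lay above all neonate groups, and Laptm5 had a further gap below neonate primary cells. Grn was ordered aged primary, aged soft, aged stiff, neonate primary, neonate stiff and neonate soft, with all neighbours overlapping. Lamp2 was set apart in aged primary cells alone, and Lamp1 and Npc1 had no gap between neighbours.

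Over the 18 libraries the genes' log2 levels correlated to different degrees, which is a description, since libraries share group, depth and scaling. Laptm5 and Grn had r = 0.91, Npc2 and Psap 0.89, Lgmn and Grn 0.88, Ppt1 and Laptm5 0.83, Lamp2 and Psap 0.67, and Npc1 and Grn 0.67. Lamp1 stood apart, with at most 0.38 (Psap) and at least -0.12 (Ppt1). Among 8547 other genes with a mean of at least 5 scaled TPM, the 6 whose levels were most like the mean of the 9 standardised genes were Havcr2 (r = 0.97), an immune checkpoint receptor, Blnk (0.95), an adaptor of B cell receptor signalling, Arl11 (0.94), a small GTPase, Inpp5d (0.94), a phosphoinositide phosphatase of blood cells, Hmgcll1 (0.94) and Wscd2 (0.94). Havcr2 was at 48.9, 81.7 and 90.2 in aged primary and at 0.671, 0 and 0 in neonate primary libraries.

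The 250 bases before the gene start were searched for 3 short motifs on both strands. The sequences are those of RefSeq on GRCr8, a later build than that of the levels, and 7 of the 9 genes were matched by symbol; Psap and Ppt1 were not matched. The E-box CACGTG, the core of the site bound by TFEB, was present in 1 of the 7, Lamp1, with 5 matches, and in 5.59% of 33469 promoters. With the cut set at its own count, Lamp1 was the only promoter of the 33469 with 5 or more. The GC box GGGCGG, bound by Sp1, was in 5 of the 7 (6 matches in Npc2, 4 in Npc1, 3 in Lamp2, 1 each in Lgmn and Grn) and in 30.5% of all. Npc2 was among the 1.72% of all promoters with 5 or more GC boxes. The core GAGGAA bound by PU.1, the product of Spi1, was in 3 of the 7 (2 matches each in Lamp2 and Grn, 1 in Laptm5) and in 23.3% of all. A match of letters is not evidence of binding.

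The sequences printed are those of Lamp1, the gene with the smallest difference between aged and neonate primary cells, and of Npc2 and Laptm5, the genes with the largest. Capitals mark the E-boxes in Lamp1 (chr16:83075064-83075313, minus strand), the GC boxes in Npc2 (chr6:110149246-110149495, minus strand; those on the other strand read CCGCCC) and the PU.1 core in Laptm5 (chr5:148371630-148371879, plus strand; read as TTCCTC on the strand of the gene). Each holds only 1 of the 3 kinds of motif, so no matches of different kinds overlap.
Lamp1: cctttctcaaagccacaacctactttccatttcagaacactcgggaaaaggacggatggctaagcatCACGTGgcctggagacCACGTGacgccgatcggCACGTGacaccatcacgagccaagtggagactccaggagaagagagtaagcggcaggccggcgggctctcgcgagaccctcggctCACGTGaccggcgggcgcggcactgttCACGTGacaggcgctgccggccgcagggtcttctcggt
Npc2: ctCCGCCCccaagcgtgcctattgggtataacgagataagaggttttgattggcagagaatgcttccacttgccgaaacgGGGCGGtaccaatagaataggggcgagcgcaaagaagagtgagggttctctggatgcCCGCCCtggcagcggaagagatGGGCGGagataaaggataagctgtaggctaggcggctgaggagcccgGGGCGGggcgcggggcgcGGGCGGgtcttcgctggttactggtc
Laptm5: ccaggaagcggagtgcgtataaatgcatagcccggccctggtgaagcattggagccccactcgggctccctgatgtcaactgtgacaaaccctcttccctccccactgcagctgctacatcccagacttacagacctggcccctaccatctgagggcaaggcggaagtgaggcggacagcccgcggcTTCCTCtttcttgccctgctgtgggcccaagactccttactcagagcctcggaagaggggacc
The 5 E-boxes of Lamp1 begin 183, 167, 150, 65 and 38 bases before the gene start, and the 6 GC boxes of Npc2 between 248 and 26 bases before it.

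**Figure D5:**
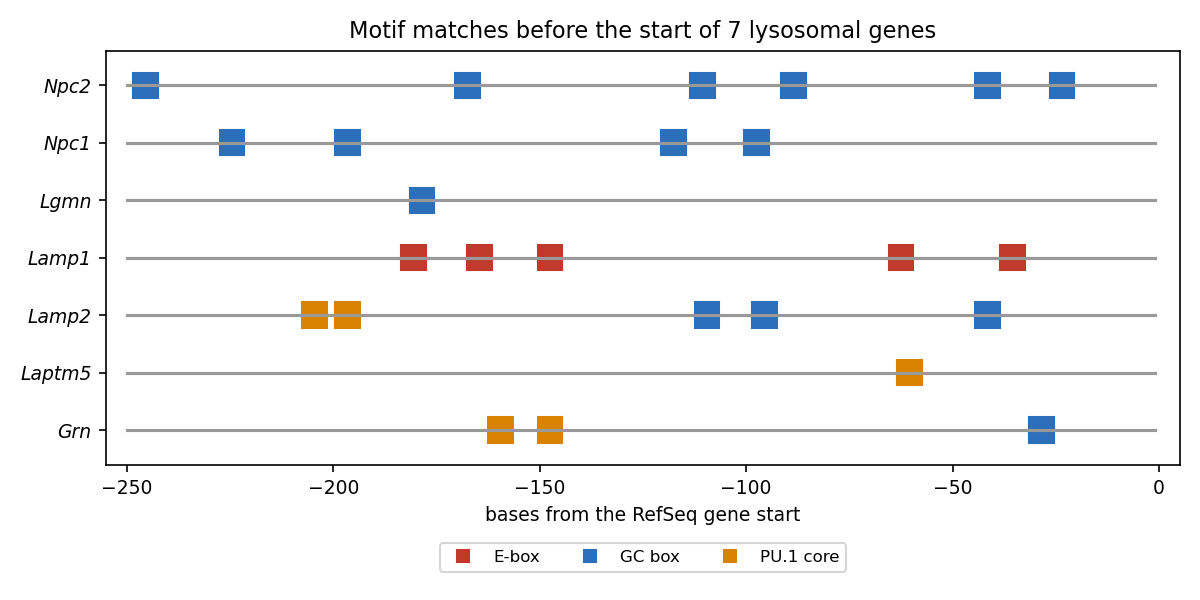
Position of each match of the E-box (red), GC box (blue) and PU.1 core (orange) in the 250 bases before the RefSeq start of 7 of the 9 genes, with the gene start at the right. Lamp1 holds 5 E-boxes and the other 6 genes hold 0, and Npc2 holds 6 GC boxes.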

How the data were processed

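Levels of 18 rat libraries were read from the deposited transcript files. Per the file headers the authors quantified annotated transcripts of a UCSC rn6 annotation with StringTie 1.3.2d, giving TPM, with no strand option. The submitters' processing notes also name Trimmomatic, HISAT2 and Bowtie. The kit, per the labels' protocols, was a stranded low-input total RNA kit. TPM was added up per gene. Scaled TPM is that sum over a median-of-ratios factor, which rests on the 1644 genes with a value above 0 in each of the 18 libraries. Read pairs were estimated as coverage times length over 300 bases. The filter asked for TPM of 1 or more in 3 or more libraries and kept 15144 genes, the 9 included. They were fitted as log2(scaled TPM + 1) on 6 group means with limma 3.58.1 under R 4.3.3, with a variance trend. Calls used the Benjamini-Hochberg adjusted p under 0.05. Fold changes on that scale depend on the pseudocount for low genes and can lie below or above the ratio of the means. On soft gels Laptm5 differed 30.4-fold between ages on that scale and 71.2-fold in its means, and Lgmn 65.8-fold and 37.6-fold. The script was tested on simulated data.

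The 9 genes, the gene lists and the comparisons were chosen with earlier results of these data known. All 9 genes are named, and from each list up to 3 called genes with the largest difference, beside Tmem119, Irf8, Pdgfra and Olig1; further called markers (Sox6, Itgam, C1qc, Csf1r, Sox10) complete their counts. Of the listed genes, 7 had no entry under their symbol and are not analysed here, and 1 gene that the naming rule selects is not reported here. Alternatives were a pseudocount of 0.1, no filter, no scaling, quantile normalization, voom, a replicate block, only the groups compared, and libraries left out.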

Additional observations from a re-analysis of the deposited data

How the results depend on the processing

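The count of the 9 genes past the threshold depended on the processing, and no difference that passed changed sign. Between aged and neonate primary cells 5 passed, against 2 with a pseudocount of 0.1, and 3 each with no filter, no scaling and quantile normalization, and 3 to 4 with 1 library left out. On soft gels 3 passed, against 5 by voom on read equivalents and 0 with only the groups compared (2 to 3 with 1 library left out). On stiff gels 2 passed, against 0 with only the groups compared and 1 without replicate 1 of each aged group (2 to 3 with 1 library left out). Between gels and aged primary cells 2 passed, against 1 with a pseudocount of 0.1, 1 with only the groups compared, and 0 to 2 with 1 library left out. In neonate cells 0 passed, against 2 with no scaling and 1 by voom. The interaction of age and culture gave 0, and 1 without replicate 1 of each aged group. The cause of these changes was not tested. Soft against stiff gels, and its interaction with age, gave 0 in all alternatives. Of 174 alternative values of called differences 134 stayed past the threshold and 40 did not, and of 1176 values of the others 13 passed. With the replicate number as a block the counts were again 5, 3 and 2 for age in primary, soft and stiff libraries and 2 for culture of aged cells, and no call changed. The numbers were not taken to pair libraries, because they are not stated to do so. Deviations of same-numbered libraries of different groups correlated at -0.09 to 0.23 (median 0.01), and those of different numbers at -0.22 to 0.12 (median -0.002). Of 18 libraries, 10 correlated best with their own number. These values do not settle whether the numbers pair libraries. All genes called between aged and neonate primary cells split into 294 higher of 394, against 241 of 395 with no scaling and 237 of 456 with quantile normalization. On soft gels 207 of 236 were higher, against 185 of 290 with quantile normalization, on stiff gels 171 of 330 against 172 of 222 with no scaling and 110 of 267 with quantile normalization, and in culture of neonate cells 6 of 15 against 0 of 47 with no scaling. Called genes in primary cells numbered 160 with a pseudocount of 0.1, 974 by voom and 175 with only the groups compared. On soft gels they numbered 991 by voom and 59 with only the groups compared, and on stiff gels 21 with only the groups compared. In culture of neonate cells they numbered 168 by voom. Depth limits the low genes: 1 read pair was worth a median of 8.57 scaled TPM for Npc2 and 5.19 for Laptm5.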
